A study of Homo sapiens with 4 samples.

Results

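Fatty acid oxidation and ketone genes were examined for peaks of γH2AX, the phosphorylated form of the histone variant H2AX, which marks DNA double-strand breaks. The set was given as 36 named genes of 19821 that code for proteins on the autosomes and X, and all 36 were found in the RefSeq gene table. The mark was mapped by CUT&Tag, in which a transposase tethered to an antibody inserts sequencing adapters into nearby chromatin, in HepG2, an established human liver cancer line. The series has 4 samples in 4 groups: mock-induced cells (titled HEPG2-DMSO) and lipid overload-induced cells (titled HEPG2-PAOA), and both treatments again with an IgG control. All groups are the same line at 100000 cells per assay, and neither the dose of the lipid nor its duration is in the labels. The values below come from the γH2AX peak lists, 1 per treatment. IgG libraries were not used here, so antibody-independent cutting at these genes has no measured level. With 1 library per condition no difference has a replicate check, and each bracketed pair below is an exact 95% interval that covers counting error only, unless it is called a range.

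Fatty acids are burned for energy mainly in mitochondria. A fatty acid is first joined to coenzyme A, carried across the mitochondrial membranes as a carnitine ester, and then shortened in rounds of dehydrogenation, hydration, a second oxidation and thiolysis. Peroxisomes run a parallel pathway for very long and branched chains, and in liver much of the acetyl-CoA made in this way leaves as ketone bodies. The set was split by these steps: 18 genes of the mitochondrial spiral and its electron transfer, 5 peroxisomal genes, 6 carnitine genes, and 7 genes of fatty acid supply, ketone formation and fuel control.

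The value used for a peak is the number of DNA fragments over its summit, worked out from the authors' fold enrichment and p-value. The mock list held 8542 peaks with a median of 5 fragments, and the lipid-overload list held 27296 peaks with a median of 9. From the background each list carries, the lipid-overload library was estimated to hold 2.62 times as many fragments as the mock one. The estimate takes that background to come from the γH2AX library itself, which the processing notes do not state. Depth and treatment cannot be told apart in a count of listed peaks. These are pools of cells, so more cells with the mark and more mark per cell cannot be told apart either. A gene end means 1 kb either side of either boundary of the gene, and a peak counts there when it shares at least 1 base with that window.

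In lipid-overloaded cells 21 of the 36 genes (58.3%, 40.8 to 74.5) had a γH2AX peak at a gene end, and in mock cells 6 of 36 did (16.7%, 6.37 to 32.8). Over all protein-coding genes the shares were 43.4% in lipid overload and 13.4% in mock, and both lie within the intervals of the set. The 6 genes of the mock list, HADHA, HADHB, ECI2, ACAA1, CRAT and CROT, were all marked in lipid overload too. HADHA and HADHB share a single peak in each list, and the counts and intervals here and below take them as separate genes. A peak at the ends or inside in either list was found for 25 of 36 genes (60.8% of all coding genes). Gene-end peaks of at least 10 fragments in lipid overload stood at 18 of 36 (50%, 32.9 to 67.1, against 29.7% of all coding genes) and of at least 20 fragments at 5 of 36 (13.9%, 4.67 to 29.5, against 9.57%). The share of all coding genes lay below the interval of the set at 10 fragments and within it at 20. At their ends 6 genes were marked in both lists (12.1% of all coding genes). That left 15 genes marked at an end in lipid overload only (41.7%, 25.5 to 59.2, against 31.4% of all coding genes) and 0 of 36 in mock only, which allows a share of up to 9.74% (1.34% of all coding genes). When the lipid-overload peaks were reduced to those that would still be called at the mock depth, 16 of 36 genes stayed marked, 10 of them in lipid overload only, where all coding genes stood at 25.5% and 15.6%. Intervals were not computed for these reduced counts. The mock peaks were weak: with peaks of −log10 q of at least 5 only, or of fold enrichment of at least 5 only, the mock count was 1 gene, ACAA1.

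**Figure D1:**
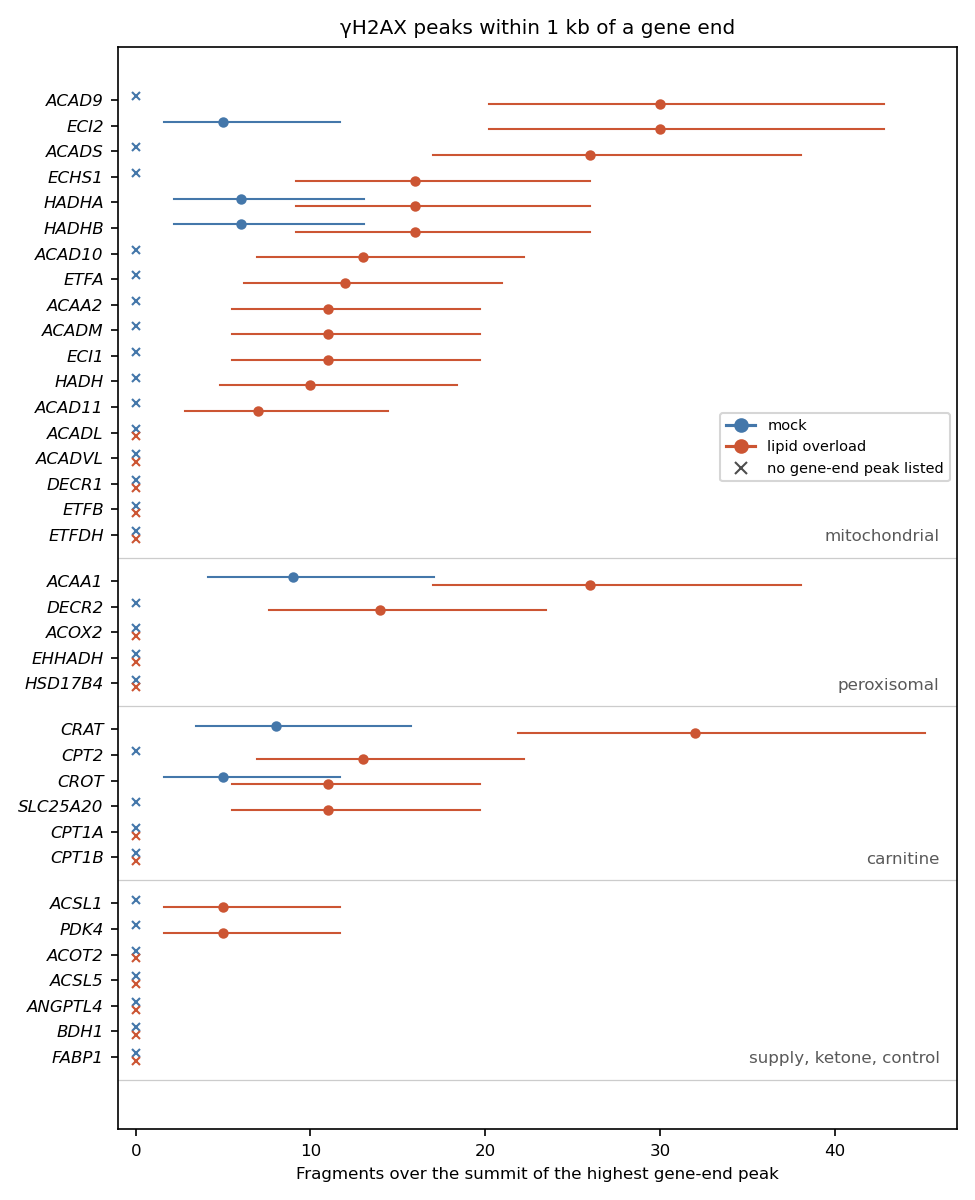
Fragments over the summit of the highest gene-end peak of each of the 36 genes (x axis), by step, in mock (blue) and lipid overload (orange), with exact 95% Poisson intervals; crosses mark genes with no gene-end peak listed. The highest lipid-overload values are 32 at CRAT and 30 at ACAD9 and ECI2, and the highest mock value is 9 at ACAA1.

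By step, lipid-overload peaks stood at the ends of 13 of 18 mitochondrial genes (72.2%, 46.5 to 90.3), 4 of 6 carnitine genes (66.7%, 22.3 to 95.7), 2 of 5 peroxisomal genes (40.0%, 5.27 to 85.3) and 2 of 7 genes of supply, ketone formation and control (28.6%, 3.67 to 71.0). In mock the counts were 3, 2, 1 and 0 in the same order, where 0 of 7 allows a share of up to 41.0%. The mitochondrial counts of both lists take in HADHA and HADHB, which share a single peak in each list. The intervals of the 4 steps overlap in both lists. No test between steps was run, and the genes were chosen with earlier results of these data known.

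**Figure D2:**
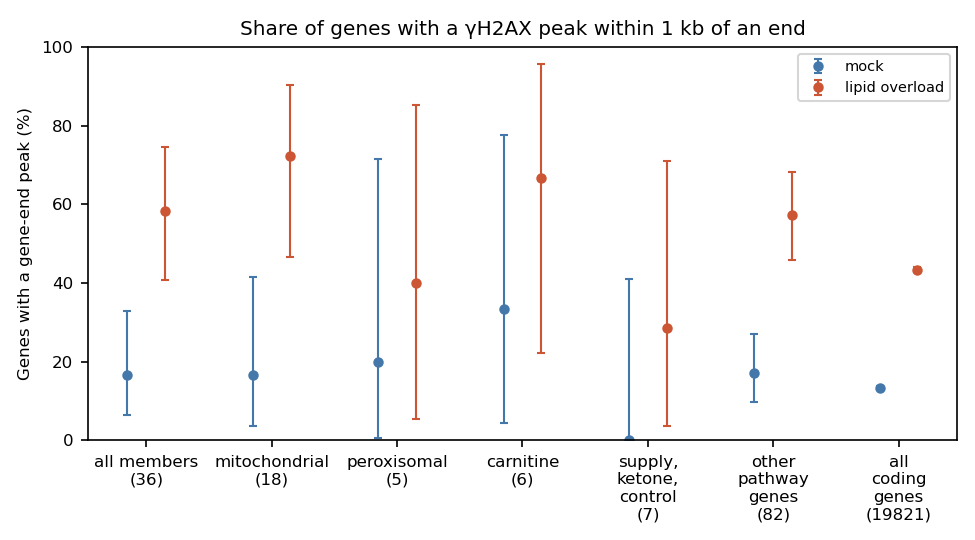
Share of genes with a gene-end peak (y axis, percent) for the 36 genes, for each step, for 82 other genes of the pathway and for all 19821 protein-coding genes, with the number of genes in brackets; bars are exact 95% binomial intervals. Mitochondrial genes have the highest lipid-overload share (72.2%), and the wide bars of the smaller groups overlap each other.

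Where the strand was known, every gene-end peak lay at the start of the gene. The RefSeq promoter table gave a start and strand for 27 of the 36 genes. Of these, 17 had a lipid-overload peak at the 5′ end (63.0%, 42.4 to 80.6) and 0 had one at the 3′ end, which allows up to 12.8%, against 42.6% and 5.87% of the 15813 coding genes of known strand. In mock 4 of the 27 were marked at the 5′ end (12.9% of all coding genes of known strand) and 0 at the 3′ end (1.49%). The 5′ counts of both lists hold HADHA and HADHB, which share a single peak in each list. The 5′ end here is the outer boundary of the gene. The summit of the highest lipid-overload peak lay a median of 54 bases upstream of it, between 658 upstream and 450 downstream. It fell within 250 bases of that boundary in 14 of 17 genes, and in 68.7% of the marked coding genes at large. The promoter table puts the start further into the gene for 3 of the 27, by 626 bases in ACSL1, 1152 in ACSL5 and 1439 in ACOT2. With those starts the same 17 genes in lipid overload and 4 in mock were marked, and the ACSL1 summit lay 176 bases upstream.

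**Figure D3:**
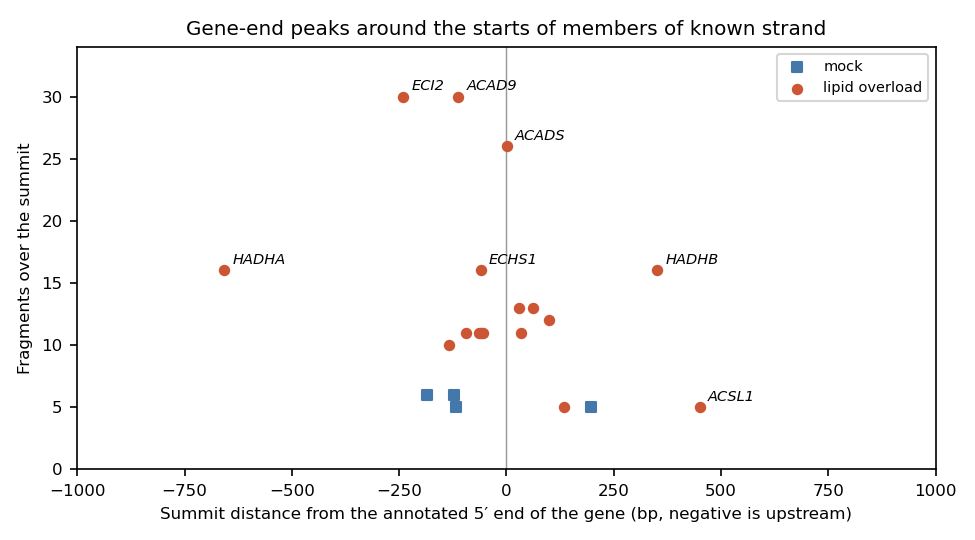
Distance of gene-end peak summits from the outer 5′ boundary of the gene (x axis, bp, negative upstream) against fragments over the summit (y axis) for genes of known strand, in mock (squares) and lipid overload (circles). Most lipid-overload summits sit within 250 bases of it; those of HADHA and HADHB are 1 shared peak drawn at its distance from each gene, and the summit at ACSL1 lies 450 bases inside the outer boundary.

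Sequences upstream of 5 of these starts are shown. They come from genes marked in both lists (HADHB with HADHA, and CROT) and from the genes with most fragments at the start in lipid overload only (ACAD9, ACADS and ECHS1). ECHS1 had 16 fragments, as many as HADHB. At the mock depth these are 6.10 where 5 were needed, so its absence from the mock list lay near the limit of listing. ECI2, also marked at its 5′ end in both lists, is not shown. Each line is the 250 bases before the RefSeq start (GRCh38.p14, the assembly that hg38 names), 5′ to 3′ on the strand of the gene. Capitals mark matches to the motifs searched on both strands: the GC box GGGCGG, the CCAAT box, the NRF1 site (GCGCA and GCGC around 1 further base), the ETS site CCGGAAG, the nuclear receptor core AGGTCA, its direct repeat with 1 base between, the E box CACGTG and the TATA box TATAAA. The HADHB stretch is chr2:26244689-26244938, plus strand. CROT is chr7:87345414-87345663, plus strand. ACAD9 is chr3:128879370-128879619 and ACADS is chr12:120725576-120725825, both plus strand. ECHS1 is chr10:133373355-133373604, minus strand.
HADHB: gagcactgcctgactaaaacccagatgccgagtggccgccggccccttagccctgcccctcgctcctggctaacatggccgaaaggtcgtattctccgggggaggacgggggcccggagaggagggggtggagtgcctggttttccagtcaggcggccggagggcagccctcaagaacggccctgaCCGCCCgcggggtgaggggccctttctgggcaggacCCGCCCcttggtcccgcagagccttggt
CROT: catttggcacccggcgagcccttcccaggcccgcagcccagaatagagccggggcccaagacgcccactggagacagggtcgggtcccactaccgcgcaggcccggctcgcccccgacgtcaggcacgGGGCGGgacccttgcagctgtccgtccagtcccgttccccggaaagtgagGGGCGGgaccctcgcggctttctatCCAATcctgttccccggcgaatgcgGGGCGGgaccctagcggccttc
ACAD9: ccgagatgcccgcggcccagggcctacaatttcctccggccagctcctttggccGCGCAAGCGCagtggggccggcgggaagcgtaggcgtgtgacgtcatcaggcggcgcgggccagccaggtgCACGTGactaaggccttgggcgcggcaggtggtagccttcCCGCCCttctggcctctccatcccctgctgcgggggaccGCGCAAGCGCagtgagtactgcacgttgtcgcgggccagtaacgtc
ACADS: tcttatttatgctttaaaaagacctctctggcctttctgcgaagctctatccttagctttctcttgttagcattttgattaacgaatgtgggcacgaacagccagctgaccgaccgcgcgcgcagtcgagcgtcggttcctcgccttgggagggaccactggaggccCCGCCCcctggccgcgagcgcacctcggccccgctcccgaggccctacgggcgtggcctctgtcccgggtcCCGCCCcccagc
ECHS1: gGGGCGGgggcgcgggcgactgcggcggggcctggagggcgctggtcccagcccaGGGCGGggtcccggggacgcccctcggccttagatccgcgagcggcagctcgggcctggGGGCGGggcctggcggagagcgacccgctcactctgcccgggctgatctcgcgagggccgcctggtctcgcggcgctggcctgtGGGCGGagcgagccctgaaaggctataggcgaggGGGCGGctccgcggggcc

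All 5 stretches hold a GC box. CROT has 3 of them spaced 50 bases apart, at 122, 72 and 22 bases before the start, with a CCAAT box 47 bases before it. ACAD9 has 2 copies of the NRF1 site, 196 and 46 bases before the start, and an E box between them. ECHS1 has 5 GC boxes and the highest G+C of the 5, at 79.6%. Over the 27 genes a GC box was found in 70.4% (55.8% of 15811 coding genes), a CCAAT box in 22.2% (34.4%), an NRF1 site in 7.41% (7.67%), an ETS site in 14.8% (11.7%), the AGGTCA core in 11.1% (10.4%), an E box in 3.70% (7.79%) and a TATA box in 11.1% (9.36%). The AGGTCA repeat, the binding element of PPAR with RXR in its consensus form, was in 0 of 27 and in 2 of 15811. An exact match is so rare that its absence from the 27 says nothing about such elements. Looser forms and other places were not searched. The repeat contains the core, and a match describes letters only.

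Base composition moved with the marking. The 17 genes with a lipid-overload peak at the start had a median G+C of 69.6% in these 250 bases (range 62.8 to 83.6), and the 10 without had 48.8% (range 42.0 to 68.8). For ACSL1, ACSL5 and ACOT2 these are the bases before the promoter table's start, while the peak was scored at the outer boundary, and the calls are the same at either. Of 17 genes with CpG-rich upstream DNA, taken as G+C of at least 50% and observed over expected CpG of at least 0.6, 15 were marked at the start in lipid overload (88.2%, 63.6 to 98.5), and of the 10 others 2 were (20.0%, 2.52 to 55.6). Among all coding genes the shares were 58.9% of 9520 CpG-rich and 17.9% of 6291 others. The marked exceptions were SLC25A20 and HADHB, both just under 0.6, and the CpG-rich genes without a start peak were ETFB and HSD17B4. HADHB shares its peak and part of its upstream DNA with HADHA, which counts among the CpG-rich marked genes, so these are not separate observations. The part of base composition in the counts by step was not tested.

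**Figure D4:**
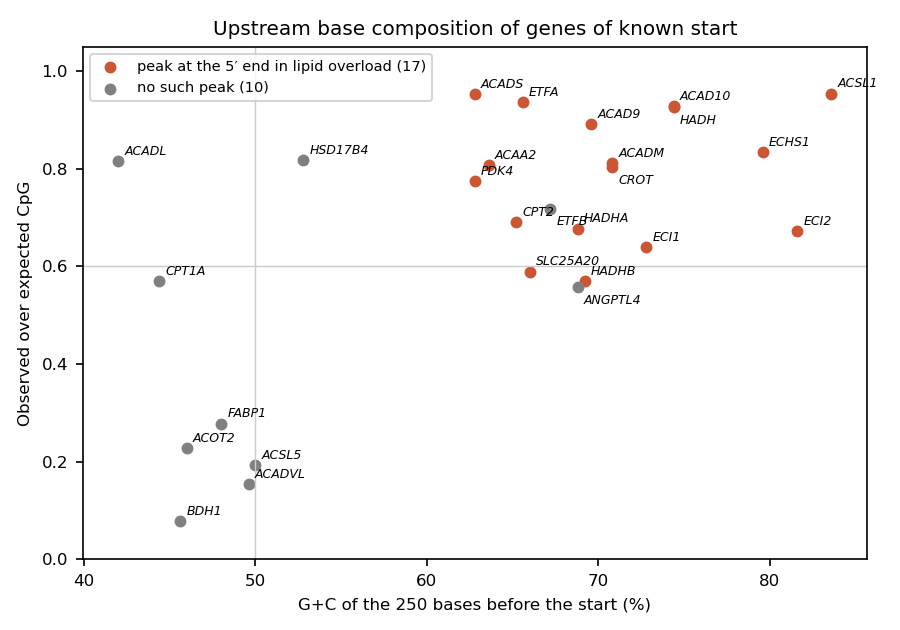
G+C of the 250 bases before the start (x axis, percent) against observed over expected CpG (y axis) for the 27 genes of known start; orange genes have a lipid-overload peak at the 5′ end (17) and grey ones do not (10), and thin lines mark 50% and 0.6. Orange points lie at G+C of 62.8% or more, while BDH1, ACADVL, ACSL5, ACOT2 and FABP1 lie at 50% or less with CpG ratios under 0.3.

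Acyl-CoA dehydrogenases take out the electrons that open each round of the spiral. ACAD9, a family member best known as an assembly factor of respiratory complex I, had 30 fragments in lipid overload (20.2 to 42.8) at chr3:128879407-128879702, with no gene-end peak in mock, where the gene held 1 inside peak. Its summit lay 113 bases upstream of the start, within the stretch printed above, and the peak also covers the divergent transcript ACAD9-DT. ACADS, the short-chain enzyme, had 26 fragments (17.0 to 38.1) at chr12:120725719-120726000, again with none in mock, and its summit lay 1 base from the annotated start. These were high values for the list: they stood above 92.5% and 88.6% of the highest gene-end peaks of all marked coding genes. Scaled to the mock depth they correspond to 11.4 and 9.91 fragments, where a mock peak over the scaled background would have needed 5.

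The medium-chain enzyme gene ACADM, mutated in the commonest inherited disorder of fatty acid oxidation, had 11 fragments in lipid overload (5.49 to 19.7) in a peak that reaches the end of the neighbouring gene SLC44A5. ACAD10 had 13 (6.92 to 22.2) in a peak shared with BRAP. ACAD11 had 7 (2.81 to 14.4), which is 2.67 at the mock depth where 4 were needed. The mock list had no gene-end peak for any of these 3, and at this depth a difference at ACAD11 was not detectable. Scaled to the mock depth, ACADM had 4.19 fragments and ACAD10 4.95, where 4 were needed for each. Both were near the limit of what the mock library could list. The long-chain enzyme genes ACADVL and ACADL had no peak at an end or inside in either list. Just outside ACADVL, 2.63 kb upstream and inside the neighbouring gene DLG4, a lipid-overload peak of 20 fragments (12.2 to 30.9) and a mock peak of 5 (1.62 to 11.7) were listed. ACADL had its nearest lipid-overload peak 16.4 kb away and its nearest mock peak 2418 kb away.

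HADHA and HADHB encode the subunits of the trifunctional protein, which carries out the later steps on long chains at the inner membrane. Their starts face away from each other across 306 bases, so they share 1 peak in each list and are not separate observations. The mock peak had 6 fragments (2.20 to 13.1) at chr2:26244733-26244896, with its summit between the starts. The lipid-overload peak had 16 (9.15 to 26.0) at chr2:26244546-26245337. It covered both starts, with its summit 351 bases inside HADHB. The summits lay 473 bases apart, so the ratio of 2.67 (0.991 to 8.32) compares 2 places within the shared peak, and its interval includes the depth ratio of 2.62.

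The other enzymes of the spiral were marked mostly in lipid overload only. ECHS1, the short-chain enoyl-CoA hydratase, had 16 fragments (9.15 to 26.0), 60 bases upstream of its start. HADH, the hydroxyacyl-CoA dehydrogenase of shorter chains, had 10 (4.80 to 18.4), and ACAA2, the mitochondrial thiolase, had 11 (5.49 to 19.7) in a peak shared with the noncoding genes SNHG22 and SCARNA17. ECHS1, HADH and ACAA2 had no mock peak at an end or inside. Scaled to the mock depth they had 6.10, 3.81 and 4.19 fragments where 5, 3 and 4 were needed. They were thus near the limit of what the mock library could list. The isomerases ECI1 and ECI2 shift double bonds of unsaturated chains into place. ECI1 had 11 fragments (5.49 to 19.7) in lipid overload and no listed peak in mock. At the mock depth these are 4.19 where 5 were needed, so a difference at ECI1 was not detectable at this depth. ECI2 had 30 (20.2 to 42.8) at chr6:4135572-4136097 in lipid overload and 5 (1.62 to 11.7) at chr6:4135328-4135525 in mock. The ECI2 peaks did not overlap and lay 46 bases apart, the lipid-overload summit 240 bases upstream of the start, towards ECI2-DT, and the mock summit 197 bases downstream. Their ratio of 6.0 (2.31 to 19.8) thus compares different places, and its interval takes in the depth ratio of 2.62. DECR1, the mitochondrial dienoyl-CoA reductase, had no peak at an end or inside in either list.

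Electron transfer flavoprotein and its ubiquinone oxidoreductase pass the electrons of the dehydrogenases to the respiratory chain. ETFA had 12 fragments at its start in lipid overload (6.20 to 21.0) and no peak there in mock. Scaled to the mock depth these are 4.57 where 4 were needed, near the limit of what the mock library could list. ETFB and ETFDH had no peak at an end or inside in either list. For ETFB the nearest lipid-overload peak, of 26 fragments (17.0 to 38.1), lay 1.09 kb upstream at the end of CLDND2, just beyond the 1 kb window, and a mock peak of 5 (1.62 to 11.7) lay 1.25 kb upstream. For ETFDH the nearest peaks lay 101 kb away in lipid overload and 259 kb away in mock.

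Among the carnitine genes the strongest peak was at CRAT, the carnitine acetyltransferase. In mock it had 8 fragments (3.45 to 15.8). In lipid overload it had 32 (21.9 to 45.2) at chr9:129110618-129111155, in a peak that also reaches the end of the phosphatase activator gene PTPA. The ratio was 4.0 (1.81 to 10.0), an interval that includes the depth ratio, and the lipid-overload value stood above 93.7% of the marked coding genes. A second lipid-overload peak of 13 fragments lay at the same end, and another pair of peaks inside the gene had 8 fragments in mock and 17 in lipid overload. CROT, which makes carnitine esters of medium chains that leave peroxisomes, had 5 (1.62 to 11.7) and 11 (5.49 to 19.7) in peaks shared with TP53TG1, a noncoding RNA gene on the other side of the start. The CROT ratio of 2.20 (0.705 to 8.08) was below the depth ratio, which its interval includes.

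CPT2, which turns acylcarnitines back into acyl-CoA inside the mitochondrion, and SLC25A20, the carrier that brings them in, were marked at their starts in lipid overload only. CPT2 had 13 fragments and SLC25A20 11, which are 4.95 and 4.19 at the mock depth where 4 were needed, so both were near the limit of what the mock library could list. CPT1A, the liver enzyme that commits fatty acids to oxidation, and its muscle counterpart CPT1B had no gene-end peak in either list. CPT1B had no peak inside either, and its nearest lipid-overload peak, of 23 fragments, lay 4.09 kb away at the end of the neighbouring gene CHKB. CPT1A held 5 lipid-overload peaks inside the gene, the most of the 36 genes, and 1 mock peak. Per 100 kb of gene it held 5.58 in lipid overload, against 11.9 in ACAD9 and 24.6 in ECI1. The highest of the 5, with 15 fragments (8.40 to 24.7) at chr11:68840818-68841086, lay 3356 bases inside the annotated 5′ end. The others had 6 to 12 fragments and lay 53009 to 80826 bases from that end, and none of the 5 overlapped the mock peak of 4 fragments. At the mock depth the peaks of 15 and 12 fragments are 5.72 and 4.57, near the 5 and 4 needed. Those of 9 and 6 fragments are 3.43 and 2.29 where 4 and 3 were needed, so a difference there was not detectable at this depth. The table gives the outermost boundary of a gene, and starts of shorter CPT1A transcripts were not analysed here.

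Of the peroxisomal genes, ACAA1 and DECR2 were marked at an end. ACAA1, the peroxisomal thiolase, had 9 mock fragments (4.12 to 17.1) at chr3:38137061-38137357 and 26 in lipid overload (17.0 to 38.1) at chr3:38136915-38137337, a ratio of 2.89 (1.31 to 7.01) close to that of the libraries. It had the strongest gene-end peak of the 36 genes in mock. DECR2, the peroxisomal dienoyl-CoA reductase, had 14 fragments in lipid overload only (7.65 to 23.5), which is 5.33 at the mock depth where 6 were needed over its higher local background. ACOX2, an oxidase of branched chains and bile acid intermediates, and the bifunctional enzyme gene EHHADH had no peak at an end or inside in either list. For ACOX2 the nearest peaks lay 71.0 kb away in lipid overload and 71.3 kb in mock, both at the end of PDHB. HSD17B4, the other bifunctional enzyme of peroxisomes, held 1 lipid-overload peak of 5 fragments inside the gene, which is 1.91 at the mock depth where 3 were needed.

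Of the 7 genes of supply, ketone formation and fuel control, 2 were marked at an end in lipid overload (28.6%, 3.67 to 71.0), and the interval holds the 43.4% of all coding genes. ACSL1, which joins fatty acids to coenzyme A, and PDK4, a kinase that turns off pyruvate oxidation, had 5 fragments each in lipid overload (1.62 to 11.7), the lowest gene-end values of the set, and none in mock. At the mock depth these are 1.91 fragments where 3 were needed, so a difference at these genes was not detectable at this depth. ACSL5, ACOT2, a mitochondrial thioesterase, and FABP1, the fatty acid binding protein of hepatocytes, had no peak at an end or inside in either list. BDH1, which makes hydroxybutyrate in the final step of ketone formation, held overlapping peaks 18319 and 18407 bases inside the gene. The mock peak had 4 fragments (1.09 to 10.2) and the lipid-overload peak 16 (9.15 to 26.0). At the mock depth the lipid-overload value is 6.10, within the interval of the mock one. ANGPTL4, a secreted lipase inhibitor and PPAR target, held 1 lipid-overload peak of 8 fragments inside the gene, which is 3.05 at the mock depth where 4 were needed. A stronger peak of 26 (17.0 to 38.1) lay 1.76 kb upstream at chr19:8362027-8362398. No mock peak lay nearer to ANGPTL4 than 16.3 kb.

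Inside the genes, away from the ends, 11 of 36 held a lipid-overload peak (30.6%, 16.3 to 48.1, against 27.8% of coding genes) and 5 of 36 a mock peak (13.9%, 4.67 to 29.5, against 12.8%). With ends and insides together, 25 of 36 were marked in lipid overload (69.4%, 51.9 to 83.7, against 58.0%) and 10 of 36 in mock (27.8%, 14.2 to 45.2, against 24.2%). The 21 inside peaks of lipid overload had 5 to 20 fragments with a median of 9, and 3 of them, in ACADS, BDH1 and CRAT, overlapped a mock peak. CPT1A, ACAD9 and ECI1 each held 3 or more inside peaks, which was so for 5.98% of coding genes, and together held 12 of the 21. ACAD9 had 4 of 5 to 11 fragments spread along its 33.5 kb and also a mock peak of 5 fragments (1.62 to 11.7) at chr3:128906113-128906285, which none of them overlapped, and ECI1 had 3 of 8 to 15 fragments close together 6969 to 8219 bases from its start. The highest inside peak was in ACADS, with 20 fragments in lipid overload (12.2 to 30.9) and 7 in mock (2.81 to 14.4), 11441 and 11202 bases from the start. Single peaks of 6 fragments in ECHS1 and 5 in ETFA, and 2 of 6 and 9 in ACAD10, were listed in lipid overload only. At the mock depth ECHS1 had 2.29 where 4 were needed and ETFA 1.91 where 3 were. ACAD10 had 2.29 and 3.43 where 3 and 4 were needed, so differences at these peaks were not detectable at this depth. At the mock depth 4 of the 21, in CPT1A, ACADS and BDH1, would still be called, against 8371 of the 27296 peaks of the whole list, gene ends included.

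**Figure D5:**
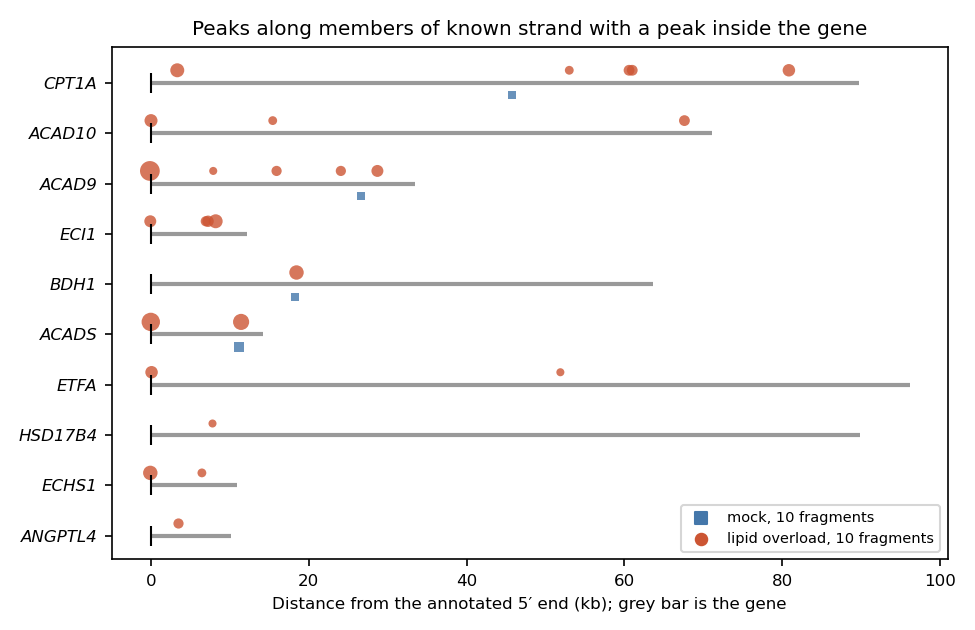
Position of peak summits along 10 genes of known strand that hold an inside peak (x axis, kb from the annotated 5′ end; grey bars are the genes), with lipid-overload peaks as circles above and mock peaks as squares below each bar and area in proportion to fragments. CPT1A, ACAD9 and ECI1 hold 5, 4 and 3 inside peaks in lipid overload, and only ACADS and BDH1 have a mock peak at the place of a lipid-overload one.

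The genes marked at an end were not the longer ones: their median length was 33.5 kb, and that of the rest was 37.3 kb. For the 11 genes with no peak at an end or inside in either list, the nearest lipid-overload peak lay a median of 14.6 kb from the gene (range 1.09 to 101) and the nearest mock peak 71.3 kb (range 1.25 to 2418). Over all 36 genes the median distance to the nearest outside peak was 15.4 kb in lipid overload and 47.3 kb in mock, and over all coding genes 21.5 and 75.8 kb. Of the 21 distinct gene-end peaks in lipid overload, 4 reach the end of another coding gene and 11 the end of some other annotated gene, so the mark cannot be assigned to 1 gene there. The gene-end peaks had a median of 13 fragments, and all gene-end peaks of the list 12.

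Among 82 other genes of the pathway, taken from a list that excludes the 36, 47 were marked at an end in lipid overload (57.3%, 45.9 to 68.2) and 14 in mock (17.1%, 9.66 to 27.0), close to the shares of the 36. Over all coding genes the shares were 43.4% in lipid overload, below the interval of the 82, and 13.4% in mock, within it. This list too was chosen with earlier results of these data known, and no test was run. Among the highest lipid-overload values were those of SLC27A4, a fatty acid transport protein, with 37 (26.1 to 51.0), PCCB, a subunit of propionyl-CoA carboxylase, with 33 (22.7 to 46.3), and ACOT9, a thioesterase, and HACL1, which splits hydroxylated chains, with 26 each (17.0 to 38.1). In mock SLC27A4 had 10, PCCB 11, ACOT9 7 and HACL1 4 fragments. By step the lipid-overload counts were 12 of 17 mitochondrial, 12 of 19 peroxisomal, 11 of 17 supply and control, 3 of 6 carnitine, 4 of 8 ketone, 4 of 11 regulator and 1 of 4 omega-oxidation genes. In this list the supply and control share was 64.7% (38.3 to 85.8), and the peroxisomal share (63.2%, 38.4 to 83.7) was near the mitochondrial one (70.6%, 44.0 to 89.7).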

How the data were processed

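γH2AX CUT&Tag peak lists of 1 mock and 1 lipid-overload library were used (100000 cells and 14 PCR cycles each, per the labels' protocols), grouped by sample title. The submitters' processing notes name BWA, deepTools, FastQC and MACS2 2.1.2, and the build hg38, without settings or the role of IgG. Each deposited list carries per peak a score, a fold enrichment (a linear ratio), −log10 p and −log10 q. These are the authors' values and were compared only within a list.

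The fragments over each summit were solved from fold and p, taking fold as the fragments over the local background with 1 added to both, and p as the Poisson tail above the fragments. A whole number fitted 100% of peaks within 0.0001 in log10 p. The solving step was also run on values simulated with the same formula, which checks the arithmetic and not the formula. The background was taken to come from the γH2AX libraries without IgG. The lowest background and the mean fragment lengths (137 and 124 bp, from the steps of the local background) gave the depth ratio. At the mock depth, fragments and background were divided by it, fragments rounded down, and peaks kept that reached the weakest p of the mock list. Fragments that a mock peak would have needed use the same rule.

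Genes are from RefSeq GRCh38.p14, with 718 entries out of position order by over 1 Mb set aside. Strand and upstream sequence came from the RefSeq promoter table. For genes with several entries the start farthest upstream was used for sequence, and peaks were placed by the outer boundaries of the gene table. The promoters printed were to be those whose start lies under a peak of both lists. No annotated start of a gene with an entry lay strictly under both, so overlap with the promoter window was used, and the strongest lipid-only starts were added. HADHA was left out because its stretch overlaps that of HADHB.

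All 36 genes are accounted for. They, the steps and the other pathway list were chosen with earlier results of these data known. Of the other list, the 5 genes with most fragments were to be named, and 1 of them is not reported here. Intervals are exact Poisson or binomial (Clopper-Pearson), computed with scipy 1.17.1 under Python 3.11.15. PCR copies are not independent molecules. The alternatives tried were stricter q and fold, equal list lengths, the mock depth, gene ends of 0.5 and 3 kb, summit overlap, 5′ ends only, merged peaks, and ACAD11 and ECI2 counted as peroxisomal.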

Additional observations from a re-analysis of the deposited data

How the results depend on the processing

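The lipid-overload count of 21 genes marked at an end ranged from 16 (equal list lengths, or the mock depth) to 25 (gene ends of 3 kb), and the count in lipid overload only, 15, from 10 (equal list lengths, or the mock depth) to 17 (fold of at least 5). Over all coding genes the lipid-overload shares were 25.9% (equal list lengths), 25.5% (mock depth) and 50.9% (3 kb), and in lipid overload only 15.9% (equal list lengths), 15.6% (mock depth) and 27.3% (fold of at least 5). The mock count of 6 became 1 with −log10 q of at least 5, 1 with fold of at least 5, and 11 with gene ends of 3 kb, and the mock count with insides included, 10, became 1 under either stricter threshold. Over all coding genes the mock share at gene ends was then 3.84%, 8.11% and 17.0%. Gene ends of 3 kb added CPT1A (20 fragments), ACADVL (20), ETFB (26) and ANGPTL4 (26) to the lipid-overload genes. The CPT1A peak lay 2.88 kb downstream of the gene, at the end of TESMIN, and the others lay upstream. At the mock depth ACAD11, ECI1, DECR2, ACSL1 and PDK4 were no longer marked. With ACAD11 and ECI2 counted as peroxisomal, lipid-overload counts were 11 of 16 mitochondrial and 4 of 7 peroxisomal genes, and mock counts 2 and 2. Merging peaks within 1 kb took the lipid-overload peaks of the set from 42 to 38 and left the 10 mock peaks. With starts taken from the promoter table, an alternative chosen after seeing the data, the counts at the 5′ end stayed at 17 and 4 of 27. No paired analysis was possible because each condition has 1 library. Peaks of 5 fragments or fewer lie near the lowest numbers listed (3 in mock, 4 in lipid overload).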
